A study of Bos taurus with 9 samples.

Results

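The genes described here make ribosomes or remodel RNA. They were chosen by name from the array's annotation: genes whose symbols start with UTP, NOP, NOL, RRP or DDX and a number, or with POLR1 or EXOSC, and in addition GTPBP4, with DDX58 left out. This gave 67 genes, measured by 100 probe sets, of the 9155 genes named on the array. The probe set with the highest mean over the 9 arrays stood for each gene. Genes such as POLR1A, UTP20, NOL9, DDX3X, DDX6 and DDX60, whose symbols no probe set carried alone, are not analysed here.

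The cells were bovine endometrial stromal and epithelial cells in co-culture, seeded at 3 stromal cells to 1 epithelial cell, from Holstein/Polish Black and White cows slaughtered between days 2 and 5 of the cycle. The LPA+IFNt group received lysophosphatidic acid (LPA, a signalling lipid, at 1e-06 M) together with interferon tau (the pregnancy signal of the ruminant embryo, 1000 antiviral units). The LPA group received LPA alone at the same dose, and the control group received phosphate-buffered saline (PBS), each for 6 h. Each group had 3 arrays, and each array held a pool of 3, taken here as 3 cows although the labels do not say what was pooled. With 9 cows in the study, 9 such pools must share cows, and the labels do not say which pools do. Arrays with equal replicate numbers deviated together, so the sharing may run across groups. P-values measure the spread between these pools, which may be between cows or technical. Cells given interferon tau without LPA are not analysed here. Of the marker lists, 11 of 11 epithelial and 11 of 11 stromal genes had control means above 2.80, the highest value of the control probe sets for a bacterial trp transcript, against 4 of 7 leukocyte, 0 of 5 endothelial and 0 of 3 red blood cell genes. In bulk RNA, fewer cells of a type and less RNA per cell cannot be told apart.

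RNA polymerase I transcribes the precursor of the ribosomal RNAs in the nucleolus. The small-subunit processome, in which the UTP proteins work, assembles on that precursor. NOP, NOL and RRP proteins modify, cleave and fold it, the RNA exosome trims it from its 3′ end, and DEAD-box helicases (the DDX genes) unwind or remodel RNA along the way. Other DEAD-box helicases serve mRNA in splicing, export, translation and decay. Cells are known to raise ribosome production when growth signals drive them to enlarge and divide.

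Values are log2 expression values from the array, so a difference of 1 is a doubling of signal. Across the 9 arrays 64 of the 67 genes had a mean signal above the trp value. The exceptions were DDX25 (2.19), DDX28 (2.05) and DDX41 (2.30), so no change is read from their values. Signals of different probe sets depend on the probes and do not rank the transcripts. With that limit, the mean signal ran from 5.55 for UTP6 to 10.77 for UTP3 in the UTP group and from 7.11 for POLR1G to 12.01 for POLR1D among polymerase I subunits. It ran from 5.30 for NOP10, a protein of the pseudouridine-guiding snoRNA particles, to 12.25 for NOP56, a core protein of the methylation-guiding ones. The nucleolar NOL genes spanned 6.27 for NOL6 to 11.33 for NOL7, the RRP genes with GTPBP4 5.02 for RRP9 to 10.14 for GTPBP4, and the exosome genes 8.16 for EXOSC2 to 10.33 for EXOSC3. Among helicases the nucleolar ones spanned 3.25 for DDX10 to 11.26 for DDX31, and DDX5, a helicase of splicing and transcription, had the highest mean signal of the whole set at 13.999. The spread between arrays of a group was small, with a median pooled standard deviation (SD) of 0.09 over the 67 genes, from 0.02 for DDX28 to 0.44 for DDX46, a helicase of splicing.

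**Figure D1:**
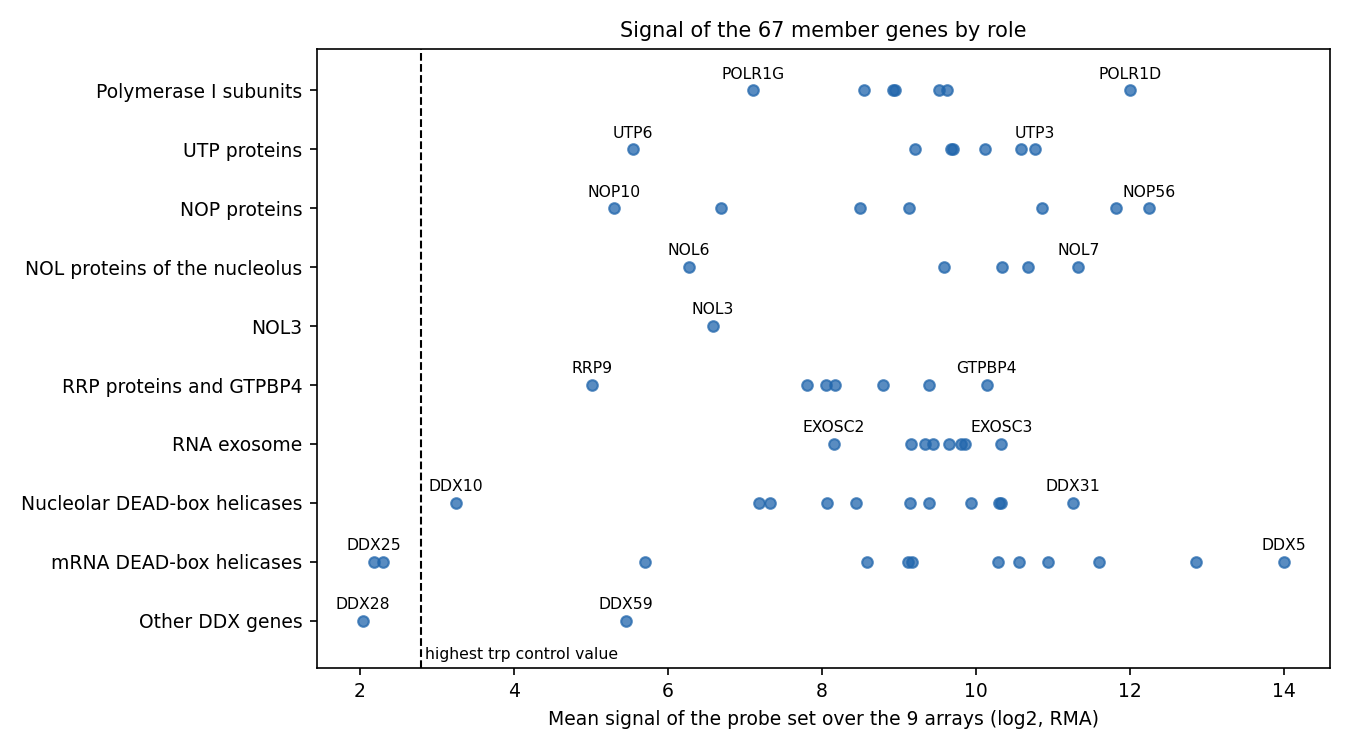
Mean signal over the 9 arrays of the probe set that stands for each of the 67 genes (x axis, log2), with 1 point per gene and 1 row per role. The dashed line marks the highest trp control value (2.80), and 64 of the 67 points lie to its right.

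A difference among the 3 groups was called for 5 of the 67 genes by limma's moderated F test at an adjusted p under 0.05, beside 5.99% of all 24016 tested probe sets. These were UTP6 (adjusted p = 0.00132), GTPBP4 (0.00133), DDX19B (0.00628), UTP11 (0.0117) and POLR1G (0.0289). With the replicate number as a block the count was 7, beside 9.48% of all probe sets. In LPA against control 63 of the 67 log2 fold changes lay within 0.3 of 0, in LPA+IFNt against control 62, and in LPA+IFNt against LPA 59. The median half-width of the 95% interval of a log2 fold change was 0.16, before any adjustment for the number of probe sets.

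**Figure D2:**
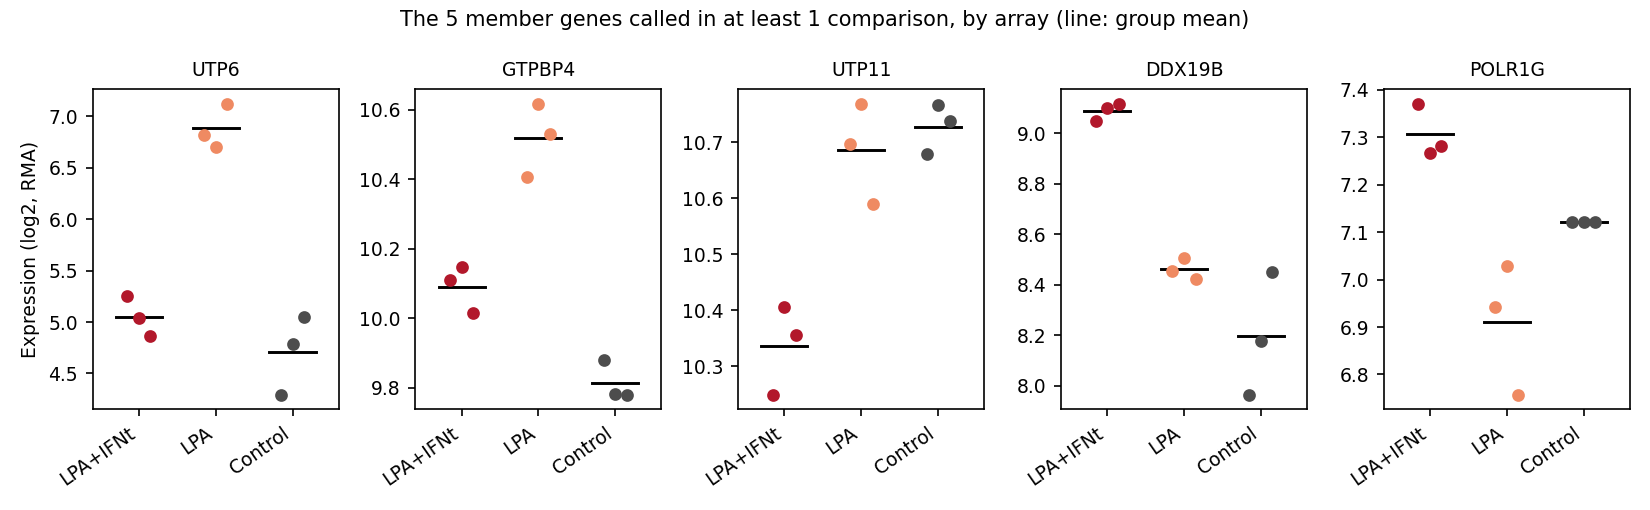
Expression (y axis, log2) of the 5 genes called in at least 1 comparison, with 1 point per array and a line at the mean of the 3 arrays of a group. UTP6 and GTPBP4 are high on the LPA arrays, UTP11 is low and DDX19B high on the LPA+IFNt arrays, and the 3 control values of POLR1G are the same. The y axes differ between panels and do not start at 0.

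The first comparison, LPA against control, asked which of these genes respond to the lipid within 6 h. UTP6 and GTPBP4 were called higher in the fit without the replicate block, and no other member was called. That is 2 of 67 by limma, beside 0.0708% of all tested probe sets (0.05% higher and 0.0208% lower). Of the named genes above the trp value 0.156% were called. With the replicate number as a block 0 of the 67 were called, beside 0.0458% of all tested probe sets. UTP6 and GTPBP4 were known from earlier results of these data, and GTPBP4 is in the rule by name. Nothing is therefore read from the difference between these shares. At an unadjusted p under 0.05 there were 9 of the 67 by limma. That p was reached by 1993 of the 24016 probe sets and by 925 of the 7030 named genes above the trp value.

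UTP6 encodes a protein of the small-subunit processome. Its probe set stood at 6.82, 6.70 and 7.12 on the LPA arrays, against 4.29, 4.79 and 5.04 on the control arrays. All 3 LPA values lay well above all 3 control values. The log2 fold change of 2.17 (standard error, SE, 0.20), or 4.51-fold, was the highest of the 24016 probe sets tested in this comparison (adjusted p = 0.0171). The call was lost with the replicate number as a block (adjusted p = 0.0675) and without control replicate 2 (0.0811), LPA replicate 1 (0.0843) or LPA+IFNt replicate 2 (0.064), whose array enters through the shared estimate of the spread. It was also lost without variance moderation (adjusted p = 0.148) and with only the 2 groups compared in the fit (0.172).

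The LPA+IFNt arrays did not share this level. UTP6 stood at 5.25, 5.04 and 4.87 there, overlapping the control arrays. LPA+IFNt against control gave a log2 fold change of 0.34 (SE 0.20, 95% interval -0.13 to 0.82, adjusted p = 0.453). LPA+IFNt against LPA, which uses the same LPA arrays, gave -1.83 (SE 0.20, adjusted p = 0.00182), the fifth lowest value of all probe sets tested.

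UTP6 had only this probe set under its own name. A second probe set, unnamed in the annotation, carries the same cluster number (20427) in its identifier. It stood at 10.47, 10.69 and 10.74 on the LPA arrays, against 10.08, 10.26 and 10.28 on the control arrays. Its groups did not overlap either, but its log2 fold change was 0.43 (SE 0.09) and did not pass (adjusted p = 0.205). With 10.14, 10.37 and 10.19 on the LPA+IFNt arrays it was lower there than on the LPA arrays, where the log2 difference was -0.40 (adjusted p = 0.0464). Both probe sets of the cluster were thus highest on the LPA arrays, with a much smaller difference in the unnamed one, which was singled out after its values were seen.

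**Figure D3:**
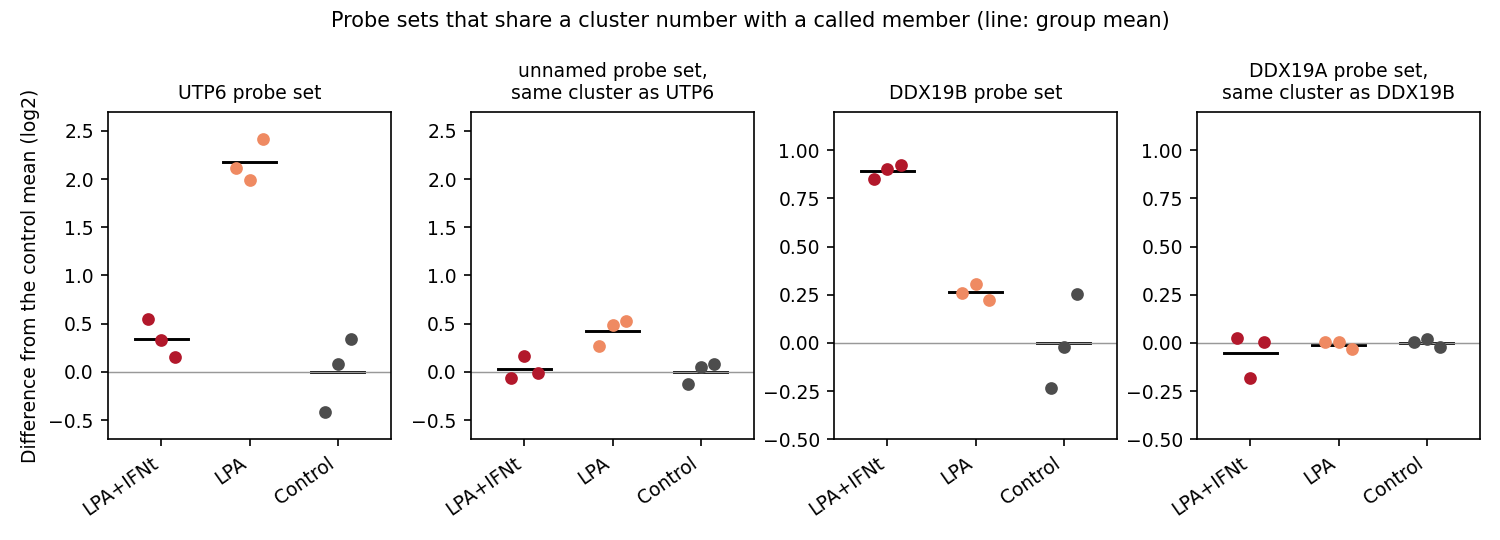
Difference of each array from the mean of the 3 control arrays (y axis, log2) for probe sets that share a cluster number, with 1 point per array and a line at the group mean. The UTP6 probe set lies 2.17 above control with LPA and the unnamed probe set of its cluster 0.43, and DDX19B lies 0.89 above control with LPA+IFNt while DDX19A lies at -0.05. The left pair of panels and the right pair have different scales.

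GTPBP4 encodes a nucleolar GTPase needed to assemble the large ribosomal subunit. It stood at 10.41, 10.62 and 10.53 on the LPA arrays, against 9.88, 9.78 and 9.78 on the control arrays. The groups did not overlap, and GTPBP4 rose by 0.70 (SE 0.06, adjusted p = 0.0133), or 1.63-fold. This call too was lost with the replicate block (adjusted p = 0.0626), and without control replicate 1 (0.0517), control replicate 2 (0.0757) or LPA replicate 1 (0.0588). It was also lost without variance moderation (adjusted p = 0.11) and with only the 2 groups compared in the fit (0.145). The LPA+IFNt arrays lay between the other groups at 10.11, 10.15 and 10.02. GTPBP4 was thus higher with LPA+IFNt than in control by 0.28 (SE 0.06, adjusted p = 0.0453, or 0.0571 with the block), a call that was lost in turn without each of 7 of the 9 arrays (adjusted p up to 0.154), among them all 3 control and all 3 LPA+IFNt arrays. It was lower with LPA+IFNt than with LPA alone, with a log2 fold change of -0.43 (SE 0.06, adjusted p = 0.00679), and this call held without each array but not with arrays centred on the spiked-in hybridisation controls (adjusted p = 0.0509).

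The polymerase I subunits held no call after LPA. For 6 of the 7 genes the value was below 0, beside 55.4% of the named genes above the trp value. The median log2 fold change of the 7 genes was -0.17. POLR1G, a subunit specific to polymerase I, had the smallest p of the group and stood at 6.94, 7.03 and 6.76 on the LPA arrays, against 7.12 on all 3 control arrays (log2 fold change -0.21, adjusted p = 0.425). The other subunits of the group ran from -0.21 for POLR1E to 0.07 for POLR1H.

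Among the UTP, NOP and NOL proteins the values after LPA were small. The 6 UTP genes other than UTP6 lay between -0.23 for UTP4 and 0.05 for UTP25. Of the 7 NOP genes 6 had values below 0, with a median of -0.15, and NOP16 had the smallest p at 11.80, 11.77 and 11.58 with LPA, against 11.93, 11.84 and 11.84 in control (adjusted p = 0.567). The 5 NOL genes of the nucleolus all had values below 0, the lowest being NOL6, a protein of the small-subunit processome, at -0.35 (adjusted p = 0.52). Of the named genes above the trp value 55.4% had values below 0. NOL3 is in the set by its name alone, since its protein inhibits apoptosis, and stood at -0.22 (adjusted p = 0.803).

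The 8 RNA exosome genes had values from -0.21 to -0.01 after LPA, the lowest being EXOSC6 (adjusted p = 0.631), which belongs to the ring of the complex. The 6 RRP genes other than GTPBP4 lay between -0.15 for RRP36 and 0.03 for RRP15. Among the nucleolar helicases DDX21, which links polymerase I transcription to rRNA processing, came nearest to a call, with 8.60, 8.64 and 8.44 on the LPA arrays and 8.21, 8.36 and 8.28 on the control arrays. Its groups did not overlap, and its log2 fold change of 0.27 (SE 0.07) had an adjusted p of 0.244. DDX50, its close relative and its neighbour on the chromosome in the ARS-UCD2.0 gene order, stood at -0.04. Of the mRNA helicases, DDX19B had a value of 0.26 (adjusted p = 0.572) and DDX46 of -0.63 (adjusted p = 0.687).

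Taking the 67 genes together, 49 (73.1%) had a value below 0 in LPA against control. Of all tested probe sets 47.6% were below 0, and of the 7030 named genes above the trp value 55.4%. The median log2 fold change of the 67 genes was -0.07, beside 0.00 for all tested probe sets and -0.02 for those named genes. The median deviation of the 67 genes from their means over all arrays was lower with LPA than in control at each replicate number, at 0.02 against 0.05, 0.01 against 0.03 and -0.07 against 0.00. The named genes above the trp value had the same order, at 0.028 against 0.042, 0.0004 against 0.007 and -0.017 against -0.0008. Without LPA replicate 3 the median log2 fold change of the 67 genes was -0.03 and 40 of the 67 values were below 0. Without control replicate 1 this median was -0.04. LPA replicate 3 gave the lowest of the 3 LPA values for 45 of the 67 genes. LPA+IFNt replicate 3 was the lowest of its group for 43, and control replicate 3 for 33. Over the named genes above the trp value those shares were 42.4%, 35.1% and 41.4%. The groups did not overlap for 9 genes with lower and 3 with higher LPA values, beside 4.91% and 5.13% of all tested probe sets (10% in either direction). Among the 7030 named genes above the trp value, 605 were lower and 467 higher without overlap.

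**Figure D4:**
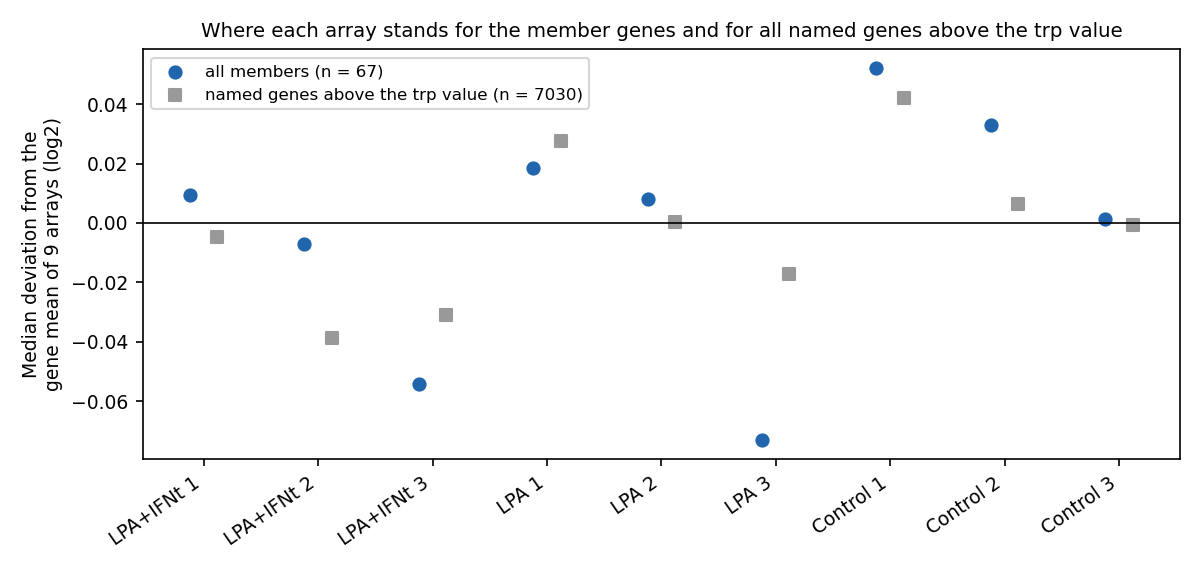
Median deviation of each array from the gene's mean over the 9 arrays (y axis, log2), for the 67 genes (circles) and for the 7030 named genes above the trp value (squares). The lowest circle is LPA replicate 3 (-0.07), followed by LPA+IFNt replicate 3 (-0.05), and the highest is control replicate 1 (0.05).

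LPA+IFNt against control was the second comparison and shares the control arrays with the first. DDX19B and GTPBP4 rose and UTP11 fell. These 3 of 67 genes are 4.48% of the set. Of all probe sets 5.34% were called (2.48% higher and 2.86% lower), and of the named genes above the trp value 8.51%. With the replicate number as a block, 1 of the 67 genes was called higher and 7 lower, where 8.68% of all probe sets were called. These were 779 higher and 1306 lower of the 24016 probe sets. Of the 7030 named genes above the trp value the block called 403 higher and 653 lower.

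DDX19B encodes a helicase that releases proteins from mRNA at the nuclear pore. It stood at 9.05, 9.10 and 9.12 on the LPA+IFNt arrays, 8.45, 8.50 and 8.42 on the LPA arrays and 7.96, 8.18 and 8.45 on the control arrays. The LPA+IFNt values lay above the values of both other groups, and the highest control value overlapped the LPA values. DDX19B rose by 0.89 against control (SE 0.11, adjusted p = 0.00292), or 1.86-fold, a call kept without each array in turn. Against LPA it rose by 0.63 (SE 0.11, adjusted p = 0.0136), a call lost without LPA replicate 1 (0.0557) or LPA+IFNt replicate 3 (0.0515).

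DDX19A is a near-identical copy of DDX19B. Its probe set carries the same cluster number (20336) as that of DDX19B, so the array's split of their transcripts is uncertain. It stood at 10.98, 10.77 and 10.96 with LPA+IFNt, 10.96, 10.96 and 10.92 with LPA and 10.96, 10.97 and 10.93 in control, so all groups overlapped. LPA+IFNt against control gave -0.05 (SE 0.05, adjusted p = 0.628). EXOSC6, the next coding gene after DDX19B in the ARS-UCD2.0 gene order, stood at -0.13 in this comparison (adjusted p = 0.517).

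UTP11 encodes another protein of the small-subunit processome. It stood at 10.25, 10.41 and 10.36 on the LPA+IFNt arrays, 10.70, 10.77 and 10.59 on the LPA arrays and 10.68, 10.77 and 10.74 on the control arrays. The LPA+IFNt values lay below all 6 others, and the LPA and control values overlapped. UTP11 had a log2 fold change of -0.39 against control (SE 0.06, adjusted p = 0.008) and of -0.35 against LPA (SE 0.06, adjusted p = 0.0121, or 0.0509 without LPA replicate 1). With arrays centred on the hybridisation controls neither passed (adjusted p = 0.0793 and 0.0871). Its dimmer probe sets with mean signals of 6.94 and 4.09 had values of -0.33 and -0.25 against control that did not pass (adjusted p = 0.213 and 0.459), and another, at 3.03, had 0.09.

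With the replicate block 6 further genes were called lower in LPA+IFNt than in control. They were NOL3 (-0.50, adjusted p = 0.106 without the block and 0.0459 with it), NOL10 (-0.24, 0.176 and 0.0412), NOP14 (-0.25, 0.176 and 0.0459), DDX27 (-0.14, 0.0863 and 0.0242), RRP1 (-0.27, 0.401 and 0.0346) and DDX46 (-0.85, 0.22 and 0.0212). The array values of DDX46 were 5.66, 5.66 and 4.72 with LPA+IFNt, 5.83, 5.66 and 5.23 with LPA and 6.21, 6.62 and 5.78 in control. Replicate 3 was the lowest of each group, and at every number the control array was the highest. NOP14 is a protein of the small-subunit processome and RRP1 and DDX27 act in large-subunit assembly.

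The polymerase I subunits lay between -0.14 for POLR1E and 0.19 for POLR1F in LPA+IFNt against control, and none passed. The 8 RNA exosome genes lay between -0.24 for EXOSC4 (adjusted p = 0.25) and 0.01 for EXOSC1. The NOP genes ran from -0.25 for NOP14 to 0.01 for NOP9. Among nucleolar helicases the values ran from -0.17 for DDX31 to 0.21 for DDX18 (adjusted p = 0.436), and DDX21 stood at 0.20 (0.165). DDX59, in neither helicase group, stood at -0.13 (adjusted p = 0.294). Over all 67 genes 46 values (68.7%) were below 0, beside 40.7% of all tested probe sets and 63.9% of the named genes above the trp value. The median of the 67 genes was -0.06, beside 0.02 for all tested probe sets and -0.05 for those named genes. The groups did not overlap for 11 genes with lower and 5 with higher LPA+IFNt values, beside 12.8% and 10.2% of all tested probe sets (23.1% in either direction). Among the 7030 named genes above the trp value, 1559 were lower and 802 higher without overlap.

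**Figure D5:**
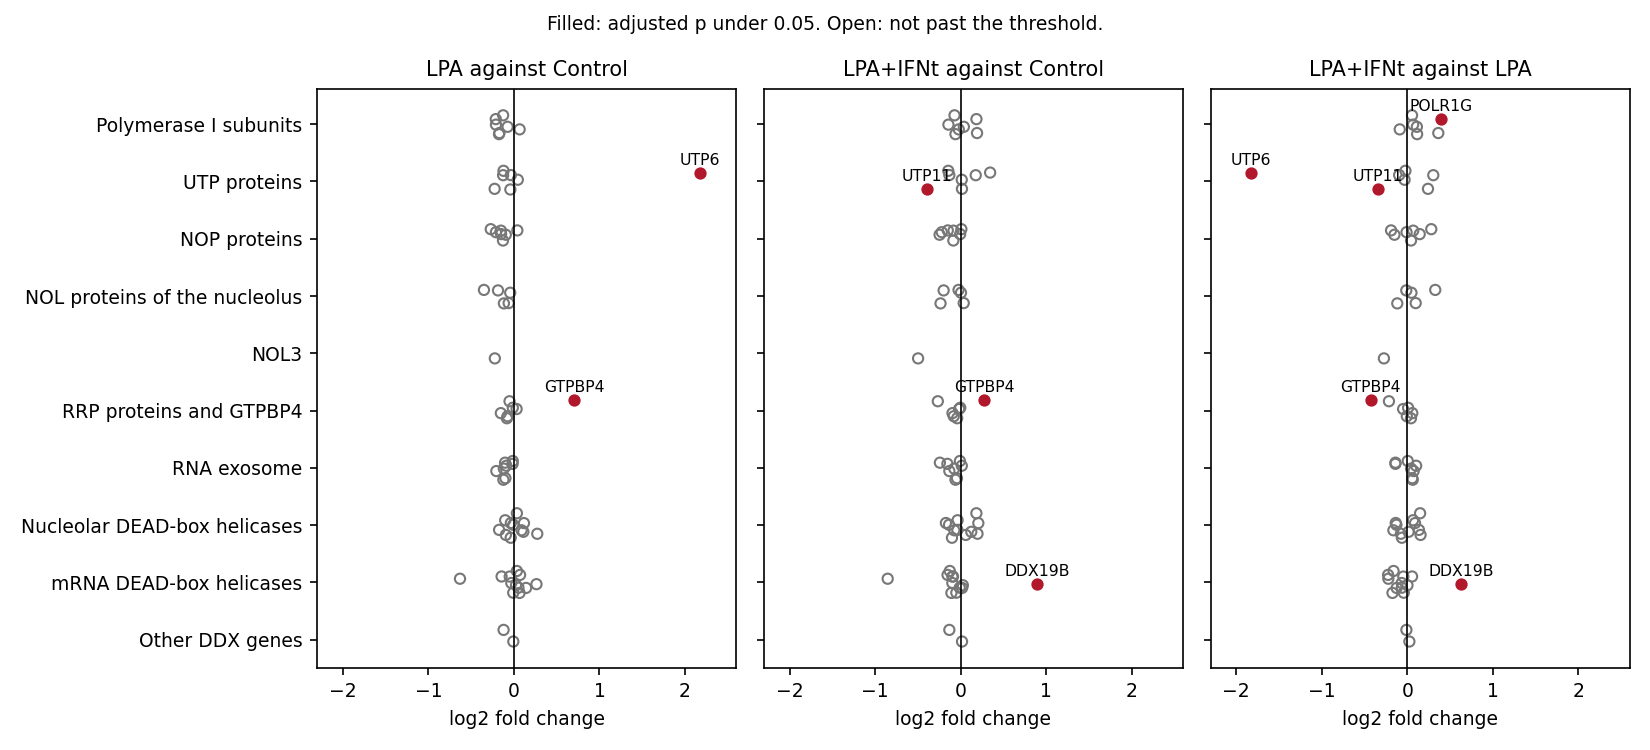
Log2 fold change (x axis) of the 67 genes in the 3 comparisons, with 1 row per role and 1 point per gene, shifted vertically within its row for legibility. Filled points passed an adjusted p of 0.05 (2, 3 and 5 genes) and open points did not, and nearly all open points lie within 0.3 of 0.

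The third comparison, LPA+IFNt against LPA, asked what changed when interferon tau was added to LPA. Of the 67 genes 5 were called (7.46%). The share was 6.54% of all tested probe sets (2.56% higher and 3.98% lower) and 10.2% of the named genes above the trp value. DDX19B and POLR1G rose, and UTP6, GTPBP4 and UTP11 fell. With the block 6 were called, beside 9.66%. The values of UTP6, GTPBP4, DDX19B and UTP11 are given above, and this comparison reads the same LPA arrays as the first and the same LPA+IFNt arrays as the second.

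POLR1G stood at 7.37, 7.27 and 7.28 on the LPA+IFNt arrays, against 6.94, 7.03 and 6.76 on the LPA arrays. The groups did not overlap, and POLR1G rose by 0.40 (SE 0.07, adjusted p = 0.0125), or 1.32-fold. The call was lost when the 6 arrays of these groups were fitted without the control arrays (adjusted p = 0.0598), and when its probe sets were averaged (0.21). The 3 control values of 7.12 were identical to every digit deposited and lay between those groups. At least 2 of the 9 values were tied for 27 of the 67 genes and for 35.8% of the 24016 probe sets. Values tied on all 3 control arrays occurred for 84 of these probe sets, and POLR1G was the only one of the 67 genes with such a tie. The spread of its control arrays thus entered the fit as 0. LPA+IFNt against control gave 0.18 (adjusted p = 0.205, or 0.0496 without LPA replicate 3), and the dimmer probe set of POLR1G, at a mean of 2.12, lay below the trp value.

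The other polymerase I subunits gave values from -0.09 for POLR1H to 0.36 for POLR1F in this comparison, with 6 of the 7 genes above 0 and a median of 0.11. The NOL gene with the smallest p was NOL6 at 0.33 (adjusted p = 0.243), the NOP gene NOP16 at 0.14 (0.271) and the exosome gene EXOSC1 at 0.10 (0.459). DDX27 was at -0.13 (adjusted p = 0.0937, and 0.0271 in the blocked fit). The median over the 67 genes was 0.00, beside 0.02 for all tested probe sets and -0.03 for the named genes above the trp value. Of the 67 values 33 (49.3%) were below 0, beside 38.5% of all tested probe sets and 57.0% of those named genes. The groups did not overlap for 10 genes with lower and 7 with higher LPA+IFNt values, beside 11.3% and 7.35% of all tested probe sets (18.7% in either direction). Among the 7030 named genes above the trp value, 1227 were lower and 787 higher without overlap.

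For DDX24, unlike UTP11 and POLR1G, a dimmer probe set was called without the block where the brightest was not. DDX24, a nucleolar helicase, has a pair of probe sets of similar mean signal. The one that stands for the gene stood at 10.29, 10.05 and 9.68 with LPA+IFNt, 10.21, 9.70 and 9.65 with LPA and 10.14, 10.02 and 9.68 in control, and these values differed more within each group than between groups. The other, at a mean of 9.88, stood at 10.28, 10.08 and 10.03 with LPA+IFNt, 9.78, 9.68 and 9.64 with LPA and 9.86, 9.82 and 9.73 in control. It was called higher with LPA+IFNt than in control (0.33, SE 0.07, adjusted p = 0.047) and than with LPA (0.43, adjusted p = 0.0132), where the first gave 0.06 and 0.15. With the block a dimmer probe set of DDX27 (mean 6.05) was also called lower against control (-1.02, adjusted p = 0.107 without the block and 0.00183 with it) and against LPA (-0.46, 0.52 and 0.0224), and one of DDX50 (mean 5.93) lower against LPA (-0.54, 0.0682 and 0.049).

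Other genes of the pathway were taken from lists. Of 71 measured ribosome biogenesis genes outside the name rule none was called in LPA against control by limma (10 at an unadjusted p under 0.05, and 0 called with the replicate block or without variance moderation). An unadjusted p under 0.05 was reached there by 925 of the 7030 named genes above the trp value. The median of the 71 genes was -0.10 and 59 of the 71 values (83.1%) were below 0, beside 47.6% of all tested probe sets and 55.4% of the named genes above the trp value. The median deviation of these 71 genes was -0.14 on LPA replicate 3, against -0.01 and -0.002 on the other LPA arrays, and its part in that median was not tested. In LPA+IFNt against control NVL (0.41, adjusted p = 0.0119), an ATPase that removes assembly factors from the large subunit, rose and NSA2 (-0.32, adjusted p = 0.00317), a large-subunit assembly factor, fell. They are 2.82% of the list, beside 5.34% of all tested probe sets. With the block 3 were higher and 4 lower, beside 8.68% of all tested probe sets called.

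In LPA+IFNt against LPA 4 of the 71 genes rose and 2 fell, or 8.45%. Of all tested probe sets 6.54% were called, and of the named genes above the trp value 10.2%. With the block 4 were higher and 1 lower, and without variance moderation 1 gene was called. Those with the smallest p were NSA2 (-0.26, adjusted p = 0.00832), NGDN (0.45, 0.0231), NVL (0.30, 0.0407) and NMD3 (0.16, 0.0455), the export adaptor of the large subunit. MYC, a transcription factor that drives ribosome production, stood at 13.38 ± 0.03 with LPA+IFNt, 13.35 ± 0.10 with LPA and 13.28 ± 0.06 in control (SD, n = 3 each) and was not called in any comparison (limma adjusted p at least 0.427).

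Of 9 measured exosome cofactors and RNA exonucleases, XRN2, a nuclear 5′ to 3′ exonuclease that trims rRNA precursors and ends transcription, rose by 0.86 in LPA+IFNt against control (SE 0.04, adjusted p = 1.75e-05) and by 0.90 against LPA. DIS3L, the catalytic subunit of the cytoplasmic exosome, was lower, at -0.46 against control (SE 0.06, adjusted p = 0.00302) and -0.43 against LPA. Neither was called in LPA against control, and no exosome gene with an EXOSC name was called in any comparison.

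Of 20 measured helicases with DHX names or related ones, DHX58, a cytoplasmic helicase of the RNA-sensing family that is known to be induced by interferon, was called in both comparisons with LPA+IFNt. It stood at 10.82 ± 0.13 with LPA+IFNt, 7.02 ± 0.09 with LPA and 6.997 ± 0.06 in control (SD, n = 3 each), a log2 fold change of 3.83 against control (SE 0.07, adjusted p = 7.59e-08). The other 19 were not called in any comparison, and with the block 1 was lower against control and 2 against LPA. The median over this list was -0.06 in LPA+IFNt against control, beside -0.05 for the named genes above the trp value, where 19 of the 20 lie.

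Markers of cell type moved beside these genes. In LPA+IFNt against control 3 of 11 stromal markers fell and 0 rose, among them COL3A1 (-0.51, adjusted p = 0.00153), and 1 of 11 epithelial markers rose (CDH1, 0.21, adjusted p = 0.0112). Of the 7030 named genes above the trp value 8.51% were called there, 311 higher and 287 lower. With the block MUC1, another epithelial marker, was also called higher (0.40, adjusted p = 0.264 without the block and 0.0288 with it) and the leukocyte marker CD14 lower (-0.74, 0.11 and 0.0364). Of 7 leukocyte markers CD53 passed without the block, but its control mean of 2.75 lay below the trp value, so no size is read from it, and no leukocyte marker was called without variance moderation. In LPA+IFNt against LPA 5 of 11 stromal markers fell (4 with the block, where COL1A2 had an adjusted p of 0.0609), among them THY1 (-0.69, adjusted p = 0.00208), and the epithelial marker SPINT2 fell (-0.45, adjusted p = 0.00457). Of the 7030 named genes above the trp value 10.2% were called there, 340 higher and 380 lower. With the block MUC1 (0.48, adjusted p = 0.0157) and KRT18 (0.20, 0.0378), both epithelial, were called higher and CD14 (-0.80, 0.0271) lower. In LPA against control no epithelial, stromal or leukocyte marker was called by limma (3, 2 and 1 at an unadjusted p under 0.05). All 11 stromal values were above 0 there, with a median of 0.06, and 7 of 11 epithelial values were below 0. Of the named genes above the trp value 55.4% were below 0 there, and 925 of the 7030 had an unadjusted p under 0.05. The median deviation of the stromal markers was 0.24 on LPA replicate 3, against 0.09 and 0.07 on the other LPA arrays. The part of the mix of cells in the values of UTP11, DDX19B and POLR1G, and in the medians after LPA, was not tested. In a list of 8 genes of proliferation and growth, RRM1 was lower in LPA+IFNt than in control (-0.27, adjusted p = 0.034), and 7 of 8 values were below 0 in LPA against control with none called (limma, 3 at an unadjusted p under 0.05). The block called 2 of the 8 higher and 1 lower in LPA+IFNt against LPA, and 0 were called without it.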

How the data were processed

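The deposited values are log2 expression values per probe set and array, which the authors produced by RMA and Partek, as the submitters' processing notes list them without versions. The range of the values fits base 2. RMA makes the distributions of arrays alike (array medians 4.29 to 4.37), so a change that moves most transcripts one way would be hidden. Precision is limited by having 3 arrays a group.

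Of 24128 probe sets, 112 Affymetrix controls were left out and 24016 tested with limma 3.58.1 (R 4.3.3), fitting 9 arrays in 3 groups by lmFit and eBayes with two-sided tests and no covariate or filter. P-values were adjusted by Benjamini-Hochberg over all of these probe sets within a comparison, with a threshold of 0.05. The fit was tested on simulated data with independent noise on each array, so that test does not cover arrays that deviate together. Symbols were taken from GEO's annotation of the array. Of these, 13283 entries matched RefSeq (ARS-UCD2.0) by gene identifier and 0 symbols changed. Of the tested probe sets 13292 had 1 symbol, 86 several and 10638 none. In addition 1 probe set with a member's name was left out because it has several symbols.

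Named genes are the members past the threshold in a comparison, the extremes of signal and the smallest p of each role, UTP6 and GTPBP4, members whose probe sets disagree, and up to 4 called genes of each list in each comparison, by smallest p. Marker genes and genes called only in the blocked fit were named after their values were seen. Members, lists and rules were chosen with earlier results of these data known. All 9 pairs of arrays with equal replicate numbers deviated together (r 0.19 to 0.49, and -0.47 to 0.14 for unequal numbers), so the numbers were taken to pair the samples. Calls, SE and adjusted p are nevertheless from the fit without that block unless the block or another alternative is named, and that fit leaves the pairing out. With the pairing in the fit, 0 of the 67 genes were called in LPA against control. In LPA+IFNt against control 1 was then called higher and 7 lower. The fit with that block is given where it changes a member's call or a list's count. Alternatives were the block, no variance moderation, an intensity trend, only the groups compared, another choice of probe set, a filter on dim probe sets, centring on 18 hybridisation controls, and each array left out.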

Additional observations from a re-analysis of the deposited data

How the results depend on the processing

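In LPA against control the 2 calls fell to 0 with the replicate block (20 members at an unadjusted p under 0.05), to 0 without variance moderation (5) and to 0 with only the 6 arrays compared (5), and lay between 0 and 2 with single arrays left out. The lowest count came without control replicate 2 or LPA replicate 1, and the count was 1 without control replicate 1 or LPA+IFNt replicate 2. The counts at an unadjusted p in brackets have no share of all probe sets beside them, so nothing is read from them. In LPA+IFNt against control the 3 calls became 8 with the replicate block and 1 with spike-in centring, which kept DDX19B, and lay between 2 and 3 with single arrays left out. In LPA+IFNt against LPA the 5 calls became 3 with spike-in centring and 3 with probe sets of a gene averaged, and lay between 3 and 5 with single arrays left out, the lowest without LPA replicate 1. The F test gave 4 to 7 under its alternatives and was not run without moderation. The causes were not tested. Spike-in centring moved adjusted p to 0.152 for GTPBP4 and 0.0793 for UTP11 against control, and to 0.0509 and 0.0871 against LPA. Averaged over its 2 probe sets POLR1G stood at 0.15 against LPA (adjusted p = 0.21), and averaged over 4 UTP11 at -0.14 (0.153). No called value changed sign under any alternative run. Of the 17 alternatives, 17 kept the call of UTP6 against LPA and 17 that of DDX19B against control. The replicate block changed no call of the 67 genes in the 3 comparisons other than those given in the report.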
